A study of Mus musculus with 15 samples.

Results

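RNA polymerase II (RNAPII) chromatin immunoprecipitation with sequencing (ChIP-seq) was compared between 2 of the 15 samples of the series, 0 min and 4 h, through the broad peak lists that the authors called on each library. Every peak of both lists was used. The cells of both groups were 3T9-MycER fibroblasts, an immortalized line from mouse embryos whose c-myc alleles are floxed and which had been infected in vitro with a pBabe construct that expresses MycER. MycER is a fusion of Myc, a transcription factor, with the ligand-binding part of a steroid receptor, and it stays inactive until 4-hydroxytamoxifen (OHT) binds. The 0 min group had received no OHT and the 4 h group had been kept in 400 nM OHT for 4 h. Both were precipitated with the N20 antibody against RNAPII. Each group held 1 library, no untreated 4 h library was used here, and OHT and time in culture cannot be told apart. Each difference is a difference between 2 libraries with no replicate check and no test.

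RNAPII that initiates at a gene often pauses just past the transcription start site (TSS), is released into the gene body by elongation factors, and slows again past the end of the gene. A sharp peak at the TSS marks paused or initiating polymerase, while cover that runs through the gene marks a gene with much polymerase in transit. Myc binds the promoters of most active genes, often at the E-box CACGTG, and is known for genes of ribosome assembly, metabolism and cell growth. In fibroblasts, genes of the extracellular matrix and of the actin cytoskeleton are among the most heavily transcribed.

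The 250 bases before the annotated start are shown for the 2 genes with the largest gain and the 2 with the largest loss of broad cover, because all 4 promoters lay under RNAPII at both times while the bodies of the genes differed. They were read from the mm9 genome on the strand of the gene, 5′ to 3′, and capitals mark CACGTG. The windows are chr8:13338501-13338750 on the plus strand for Tfdp1, chr17:71965305-71965554 on the plus strand for Wdr43, chr2:27741695-27741944 on the plus strand for Col5a1 and chr6:34548250-34548499 on the plus strand for Cald1.
Tfdp1 (gain): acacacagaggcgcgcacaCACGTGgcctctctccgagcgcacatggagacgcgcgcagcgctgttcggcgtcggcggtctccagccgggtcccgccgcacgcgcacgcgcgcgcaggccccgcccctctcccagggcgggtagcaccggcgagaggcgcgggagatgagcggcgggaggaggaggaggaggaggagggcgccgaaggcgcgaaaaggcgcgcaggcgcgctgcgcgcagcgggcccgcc
Wdr43 (gain): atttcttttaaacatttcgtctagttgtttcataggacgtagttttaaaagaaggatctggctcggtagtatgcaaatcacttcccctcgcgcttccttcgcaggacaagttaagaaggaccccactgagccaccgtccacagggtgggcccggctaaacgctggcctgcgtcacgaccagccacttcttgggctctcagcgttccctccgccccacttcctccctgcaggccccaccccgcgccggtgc
Col5a1 (loss): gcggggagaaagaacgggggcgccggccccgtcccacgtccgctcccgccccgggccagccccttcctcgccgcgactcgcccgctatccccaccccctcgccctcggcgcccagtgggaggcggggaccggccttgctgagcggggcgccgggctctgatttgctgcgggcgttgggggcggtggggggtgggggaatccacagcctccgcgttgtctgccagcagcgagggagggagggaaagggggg
Cald1 (loss): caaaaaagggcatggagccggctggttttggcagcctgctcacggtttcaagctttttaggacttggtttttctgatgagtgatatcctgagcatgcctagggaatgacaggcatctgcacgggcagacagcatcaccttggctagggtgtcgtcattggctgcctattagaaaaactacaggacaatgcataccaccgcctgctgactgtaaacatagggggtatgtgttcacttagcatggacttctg
The window of Tfdp1 holds 1 CACGTG and the other 3 windows hold none. The share of G and C bases was 76.8% for Tfdp1, 56.8% for Wdr43, 76.4% for Col5a1 and 49.6% for Cald1. Broad RNAPII peaks covered all 250 bases at 0 min in each window, and at 4 h all 250 bases except at Tfdp1, where they covered 214. Peaks of the Myc lists covered all 250 bases of each window at 0 min and at 4 h.

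The depths were close, with 15276996 tags at 0 min and 16268203 at 4 h, a ratio of 1.06. The broad lists held 17898 peaks over 20.5 Mb at 0 min and 18264 peaks over 20.7 Mb at 4 h. Median peak length was 823.5 bp and 787 bp, and 59 and 55 peaks reached 10000 bp. Of the 12 fibroblast markers, 11 had a broad promoter peak at 0 min and 10 at 4 h, against 0 of the T or myeloid cell, endothelial and hepatocyte markers and 1 each of the 8 B cell (Ebf1) and 6 neuron markers at both times.

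Merging the 2 lists wherever their peaks overlapped by at least 1 bp gave 20685 domains. Of these, 12957 (62.6%) held peaks of both lists and are called shared, 3725 (18%) held peaks of 0 min only and are called lost, and 4003 (19.4%) held peaks of 4 h only and are called gained. Most of the polymerase map was thus common to both times, and gained and lost domains came in similar numbers. Lost and gained domains were short, with median lengths of 485 bp and 475 bp against 1158 bp for shared domains. The merging rule favours this, since a long peak is more likely to meet one of the other list and a shared domain joins both. The longest lost domain measured 2998 bp and the longest gained one 6351 bp, while shared domains reached 39382 bp.

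By base pairs, 15.8 Mb lay under both lists, 4.73 Mb under the 0 min list only and 4.91 Mb under the 4 h list only. Lost domains made up 45.0% of the cover seen only at 0 min, and gained domains 47.8% of that seen only at 4 h. The rest was growth, shrinkage or breaking up of domains present at both times. Among shared domains, 1129 (8.71%) had at least 1.5 times more cover at 4 h and 1348 (10.4%) at least 1.5 times less, with a median ratio of 0.98.

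**Figure D1:**
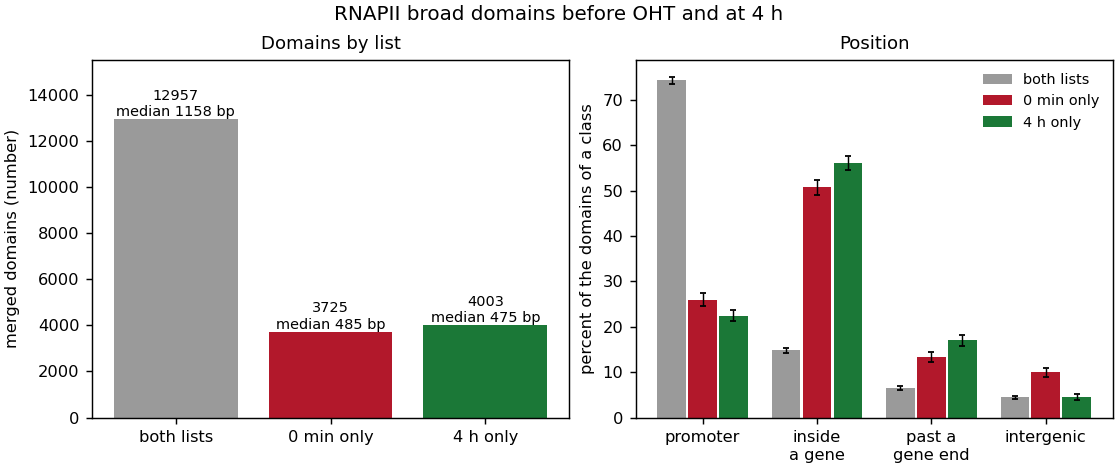
Left, the number of merged broad RNAPII domains with peaks in both lists, at 0 min only or at 4 h only, with their median lengths. Right, the percent of the domains of each class in each position, with Wilson 95% intervals for counting error; 74.3% of shared domains lie at promoters, while 50.8% of those at 0 min only and 56.1% of those at 4 h only lie inside genes.

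Shared domains lay mostly at promoters and unshared ones mostly inside genes. A domain was assigned to a promoter when it came within 1000 bp of the TSS of any annotated transcript, otherwise to the inside of a gene, otherwise to the 5000 bp past a gene end. Promoters held 74.3% of shared domains (Wilson 95% interval 73.5% to 75.1%), 26.0% of lost ones (24.6% to 27.4%) and 22.5% of gained ones (21.2% to 23.8%). The inside of genes held 14.8%, 50.8% and 56.1% in the same order, and the 5000 bp past gene ends held 6.43%, 13.3% and 17.0%. Lost and gained domains differed most between genes, where 9.93% of lost domains (9.01% to 10.9%) but 4.42% of gained domains (3.83% to 5.10%) lay. Wilson intervals account for counting error alone.

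Peaks in unshared domains were weak ones. By the authors' own values, the median fold enrichment was 7.93 for peaks of lost domains against 17.6 for the other 0 min peaks, and 7.75 for peaks of gained domains against 16.2 for the other 4 h peaks. Among peaks of lost domains 2.20% passed the median −log10 p of their list, and among those of gained domains 2.12%. The other broad lists of the series hold many of the same places. A broad peak of 2 h lay in 61.1% of gained and 39.7% of lost domains, and one of 30 min in 47.6% and 43.1%. The library of 20 min, with 36395919 tags the deepest of the 6, covered 85.6% of each class.

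Lost domains touched 1611 of 22238 protein-coding genes, gained domains 1682 and shared domains 9703. Both a lost and a gained domain were found in 399 genes, and a lost domain was the only broad signal in 395 genes and a gained domain in 284. Promoters under a broad peak numbered 9857 at 0 min and 9723 at 4 h. Of these, 9473 were common, 384 were seen at 0 min only and 250 at 4 h only. Most promoters with RNAPII were thus the same at both times.

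The longest domains of both lists were shared, which the merging rule favours. The cover at 4 h was first counted within the longest peaks of 0 min, where it cannot exceed their length. At 0 min the longest peak, 39382 bp at chr6:4455121-4494502, covered Col1a2, which encodes a chain of collagen I, and 38020 bp of it remained covered at 4 h. The next, 32552 bp at chr9:66865347-66897898, covered Tpm1, which encodes an actin-binding tropomyosin, with 31071 bp at 4 h. A peak of 29430 bp at chr19:5821477-5850906 ran over Neat1, the long noncoding RNA that builds paraspeckles, and 28270 bp of it were covered at 4 h. One of 20362 bp at chr11:94797112-94817473 covered Col1a1, with 20085 bp at 4 h. Broad peaks thus lay over nearly the same bases of Col1a2 and Col1a1 at both times. Over Col1a2, the 1 peak of 0 min became 4 at 4 h, the longest of 25490 bp. A peak of 18624 bp at chr4:88551560-88570183 covered the microRNA gene Mir31, and no protein-coding gene is annotated under it. It was matched by 18396 bp at 4 h. Taken from the longest peaks of 4 h, a peak of 20751 bp over Hnrnpu, an RNA-binding nuclear protein, had 20595 bp at 0 min, and one of 19039 bp over Ncl, nucleolin, had 17476 bp.

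Some shared domains grew by several kilobases. At Serbp1, which encodes an mRNA-binding protein of the ribosome, chr6:67229039-67249713 went from 9 pieces with 12689 bp to 1 peak of 20675 bp. The domain of Ybx1, an RNA-binding cold-shock protein, went from 1503 bp to 8143 bp, and that of Nolc1, a nucleolar chaperone of small nucleolar particles, from 3465 bp to 9718 bp. Short pieces thus became single long domains at these genes. The largest shrinkage was at Hmga2, a chromatin protein of embryonic and mesenchymal cells, where chr10:119900048-119907661 fell from 7614 bp as 1 peak to 1798 bp in 3 pieces. The domain chrX:71482222-71492607 of Flna, which encodes the actin cross-linker filamin A, fell from 10386 bp to 4612 bp. At Cnn2, an actin-binding calponin, cover fell from 7948 bp to 2231 bp, and at Dusp1, an immediate-early phosphatase of MAP kinases, from 5396 bp to 1035 bp. In this direction long domains were broken into pieces or trimmed. The longest gained domain, chr2:32453210-32459560 over St6galnac4 and St6galnac6, was 1 peak of 6351 bp, and the longest lost one, chr7:109162193-109165190 over Numa1 and Il18bp, was 1 peak of 2998 bp.

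Cover was then measured gene by gene. The body of a gene is the gene without its first 1000 bp, and its cover is the percent of the body under broad peaks. The 9400 protein-coding genes of at least 3000 bp with a broad promoter peak at 0 min or 4 h were measured. A change of at least 20 percentage points was counted. Cover was higher at 4 h by that much in 219 genes, which is 2.33% of those measured, and lower in 103 genes, which is 1.10%. Only 721 genes had 20% or more to lose at 0 min, and 14.3% of them lost that much. Of the 9206 genes with room to gain 20 points, 2.38% gained them. The libraries are of bulk cells, so more cells with RNAPII on a gene and more RNAPII per cell cannot be told apart. Mean cover over all 9400 genes was 5.51% at 0 min and 6.16% at 4 h, and the median was 0% at both times. The called genes nearest the limit were Erp29 at 20.2 points and Wdr1 at −20.2 points, and the nearest below it were Nip7 at 19.9 points and Prrc2a at −19.97 points.

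**Figure D2:**
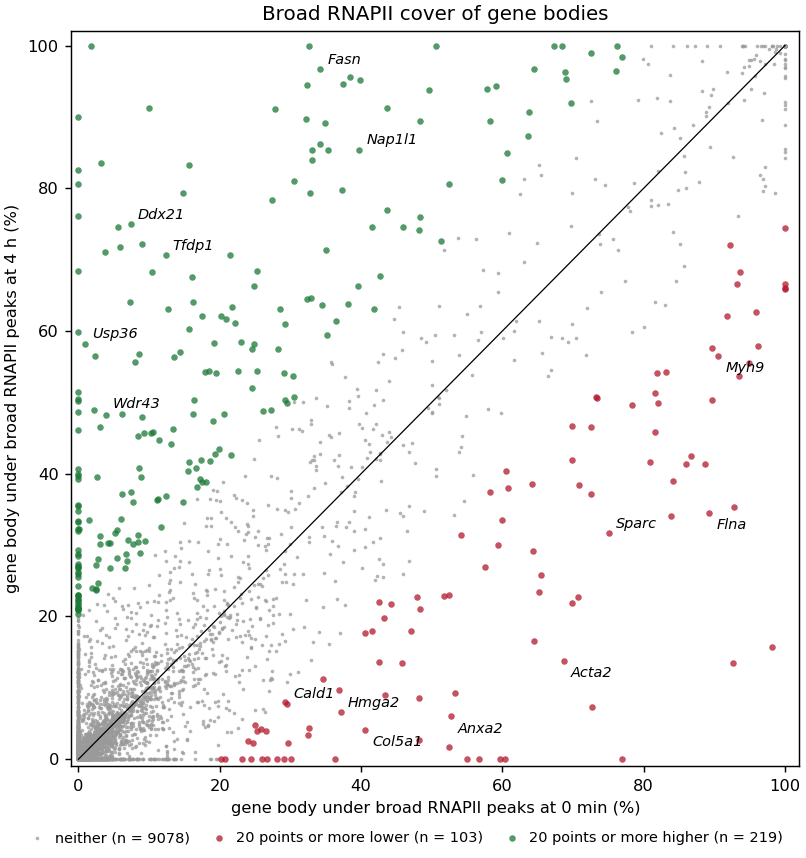
Percent of each gene body under broad RNAPII peaks at 0 min (x axis) and at 4 h (y axis) for 9400 genes, 1 point a gene. The 219 genes at least 20 points higher lie above the diagonal, most of them at low cover at 0 min, and the 103 genes at least 20 points lower lie below it.

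The called genes were short. Median length was 7905 bp for the 219 genes with more cover and 7840 bp for the 103 with less, against 24990.5 bp for all genes measured. A change of 20 points takes fewer base pairs in a short gene, so the rule itself favours short genes. With a change of at least 2000 bp also required, 132 and 51 genes remained. A gene that overlapped another protein-coding gene made up 34.7% and 32.0% of the 2 classes against 23.9% of all, and for such genes the cover cannot be assigned to 1 of the partners. Promoter peaks were present at both times in nearly all of these genes. Of the 219 genes, 214 had a broad promoter peak at both times and 5 at 4 h only, and of the 103 genes 99 had it at both times. The same held for 8822 of all 9400 genes, and a promoter peak at 0 min or 4 h was needed to be measured.

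Along the gene, the difference ran through the body to the end. With each gene cut into 4 equal stretches from start to end, mean cover of the first stretch in the 219 genes went from 48.5% to 70.0%, of the second from 16.7% to 54.4%, of the third from 16.5% to 53.1% and of the last from 20.8% to 57.1%. In the 5 kb upstream it was 17.5% and 18.7%, and in the 5 kb past the end 36.3% and 50.3%. In the 103 genes the first stretch went from 73.7% to 56.9%, the second from 59.2% to 29.0%, the third from 59.3% to 20.7% and the last from 61.4% to 23.7%. Cover in the 5 kb upstream went from 23.0% to 18.2%, and past the end from 44.6% to 31.2%. These genes were chosen by their body cover, so the size of these differences follows from the choice and is a description. The 9078 other genes had 3.88% and 3.87% in their second stretch, and 11.01% and 12.1% past the end.

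**Figure D3:**
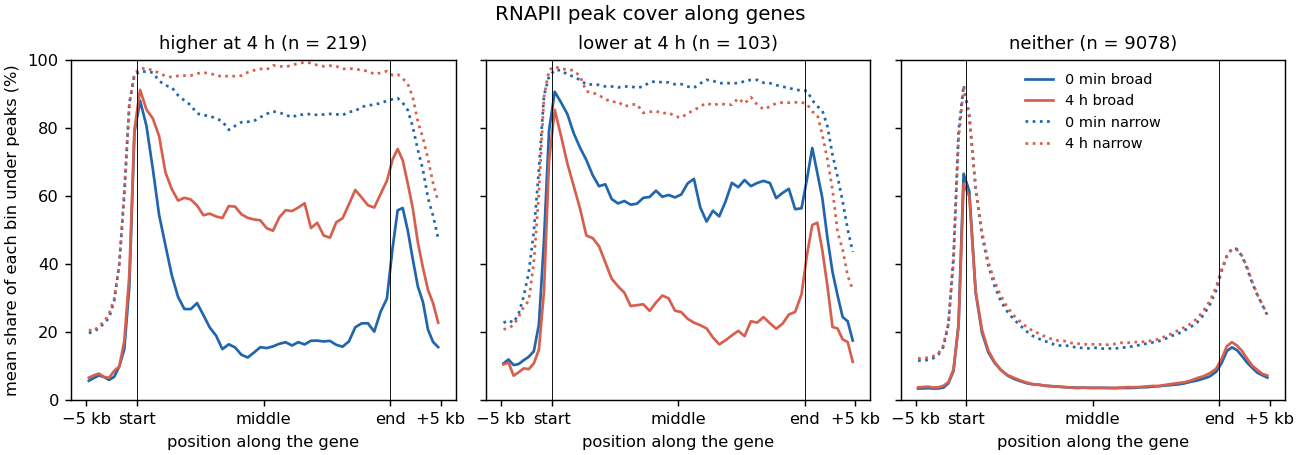
Mean percent of each bin under RNAPII peaks along genes scaled to one length, with 5 kb on each side, for genes at least 20 points higher at 4 h, at least 20 points lower, and neither. Solid lines are the broad lists and dotted lines the narrow lists. The broad lines part most through the body. In the genes with lower cover they also part upstream, with 23.0% at 0 min and 18.2% at 4 h over the 5 kb.

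The largest gain by base pairs was at Tfdp1 (chr8:13338751-13378395, 39.6 kb), which encodes the dimerization partner of E2F cell-cycle factors. Broad peaks covered 5436 bp of it at 0 min and 28006 bp at 4 h, or 12.3% and 70.6% of its body, in 9 and 28 pieces. Wdr43 (chr17:71965555-72008371, 42.8 kb), which encodes a part of the machinery that processes small-subunit ribosomal RNA, went from 2510 bp to 21144 bp and from 3.9% to 48.2%. Usp36, a nucleolar deubiquitinase, went from 1277 bp to 18224 bp, or from 0.9% to 58.2% of its body. At these 3 genes more of the body passed the broad cutoff at 4 h, while the narrow list of 0 min already covered 96.2%, 98.5% and 80.8% of their bodies. Csda, a cold-shock RNA-binding protein, went from 5.9% to 71.8% of its body, and Ddx21, a nucleolar RNA helicase, from 7.4% to 75.0%.

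Metabolic and transport genes followed in this ranking. Mtap, which salvages methionine from a by-product of polyamine synthesis, went from 13.2% to 44.2% of its body. Ctps, the CTP synthase, went from 8.5% to 45.3%, and Fasn, the fatty acid synthase, from 34.3% to 96.7%. Slc7a1, a transporter of cationic amino acids, went from 1.6% to 16.8% of a gene of 72.5 kb, below the size counted. Its narrow cover was 61.6% and 60.9%. Psat1, an enzyme of serine synthesis, went from 11.1% to 36.3%. Nap1l1, a histone chaperone, went from 39.7% to 85.4%, Rangap1, the activator of the Ran GTPase of nuclear transport, from 3.0% to 46.5%, and Nufip2, an RNA-binding protein, from 19.3% to 42.8%. The predicted gene Gm17484 went from 0% to 80.6%. The 15 largest gains ranged from 10517 bp to 22570 bp. Gm17484 overlaps Bag4 and Ddhd2, and Nufip2 overlaps Cryba1. Among genes of at least 10000 bp, the 10 largest gains in points added Tomm20 (3.7% to 71.1%), a receptor of mitochondrial protein import, Hspd1 (34.9% to 89.2%), the mitochondrial chaperonin, Eef1d (32.2% to 89.7%), a translation elongation factor, and Fkbp3 (2.4% to 56.5%). Fkbp3 overlaps Prpf39.

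Ribosome biogenesis genes gained cover in 14 of the 54 measured members and lost it in 0, against 2.33% and 1.10% of all genes. Mean cover of the list was 14.0% at 0 min and 26.7% at 4 h, with a median change of 1.81 points, while the median over all genes was 0. A gained domain lay in 26 of the 54 and a lost one in 1, against 16.1% and 15.2% of all measured genes. The 14 were Ddx21, Dimt1, Ftsj3, Mrto4, Mybbp1a, Nhp2, Nolc1, Nop2, Nop16, Nop58, Rrp9, Tsr1, Ubtf and Wdr43. Nolc1 went from 10.0% to 91.3%, the largest change in the list. Nop2, a methyltransferase of ribosomal RNA, went from 16.1% to 67.6%, and Nop58, a core protein of box C/D small nucleolar particles, from 5.5% to 32.1%. Ubtf, a factor of RNA polymerase I, went from 41.8% to 63.0%. Bop1, another member, was the lowest in change of broad cover, with 32.6% at 0 min and 30.5% at 4 h. Its narrow cover went from 55.8% to 100%.

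Mitochondrial chaperone and import genes gained cover in 8 of 23 members and lost it in 0, against 2.33% and 1.10% of all measured genes. Their mean went from 8.88% to 28.0%. The 8 were C1qbp, Cycs, Hspa9, Hspd1, Hspe1, Phb2, Slc25a5 and Tomm20. Cycs, cytochrome c, and Slc25a5, an ADP/ATP carrier, were in the list but are neither chaperones nor import factors. Hspd1 and Hspe1, which encode the 2 partners of the mitochondrial chaperonin, are neighbours whose annotated genes overlap. Hspe1 went from 0% to 82.5%. Cytosolic chaperones gained cover in 3 of 16 members (Cct5, Cct8 and Hspa4) and lost it in 0. Splicing factors with Prmt1 and Prmt5 gained it in 6 of 27 (Ddx39, Prmt1, Srsf5, Srsf6, Srsf7 and U2af1) and lost it in 0. U2af1, which recognizes the 3′ splice site, went from 21.5% to 70.6%, and Prmt1, an arginine methyltransferase, from 20.9% to 61.6%.

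Translation factors gained cover in 3 of 20 members (Eef1d, Eef1e1 and Eif2s2), while tRNA synthetases gained it in 0 of 20 and lost it in 0 of 20. Of all measured genes, 2.33% gained and 1.10% lost cover. The mean cover of the synthetases was 4.53% and 4.33%. Ribosomal protein genes were already filled, with a mean of 88.0% at 0 min and 92.9% at 4 h, and 2 of 27 gained cover. These were Rpl7, from 27.8% to 91.1%, and Rps7, from 48.4% to 89.5%. Nucleotide synthesis genes gained cover in 3 of 29 members (Ctps, Impdh2 and Shmt2), glycolysis genes in 3 of 19 (Ldha, Pgam1 and Pgk1), and amino acid transport and stress genes in 3 of 16 (Phgdh, Psat1 and Slc7a5), with 0 losses in each of these lists. Shmt2 overlaps Ndufa4l2. Srm, the spermidine synthase, was the member called among 6 polyamine genes and went from 67.3% to 100%. Cell cycle genes gained cover in 4 of 28 (Ccna2, Ccnd2, Ccne2 and Cdc25a) and lost it in 1 (Mcm7, which overlaps Ap4m1 and Cops6). Ccnd2, cyclin D2, went from 16.2% to 48.4%, and Ccna2, cyclin A2, which overlaps Exosc9, from 21.7% to 63.4%.

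**Figure D4:**
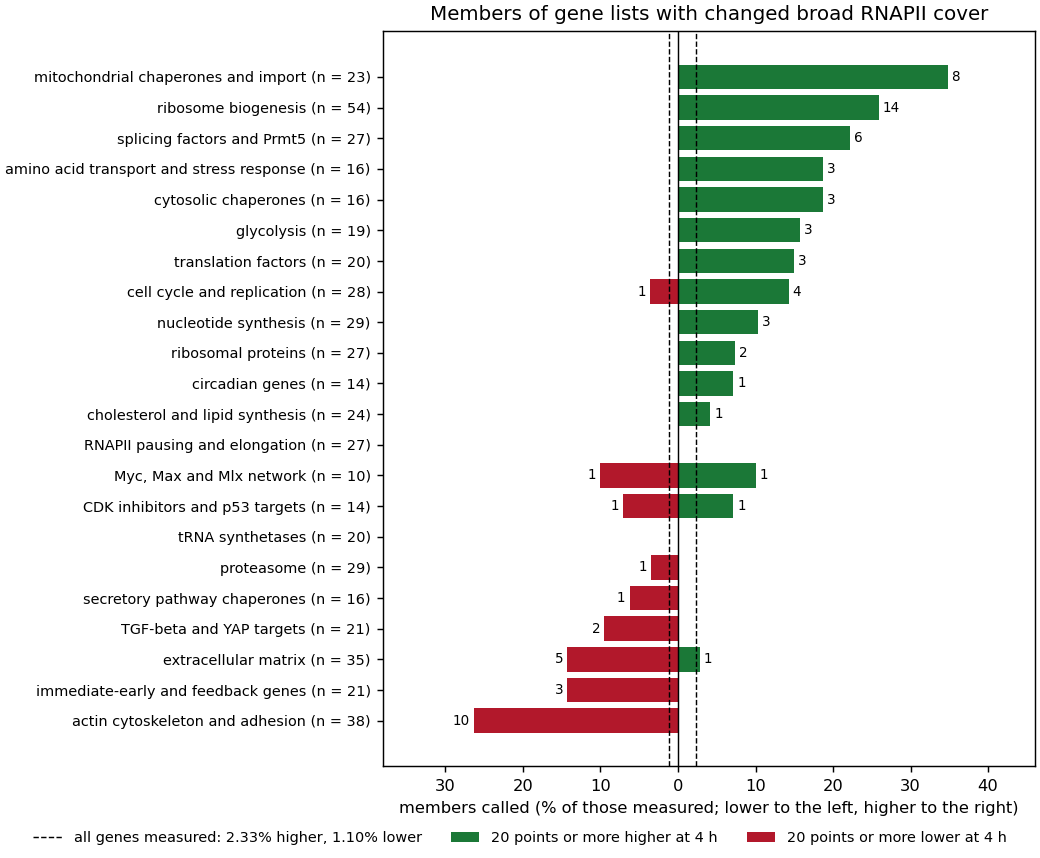
Percent of the measured members of each gene list whose body cover was at least 20 points higher (right) or lower (left) at 4 h, with the number of members beside each bar. Dashed lines give the same shares over all 9400 genes, 2.33% higher and 1.10% lower.

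The largest loss by base pairs was at Col5a1 (chr2:27741945-27895034, 153.1 kb), which encodes a chain of collagen V. Broad peaks covered 62639 bp at 0 min and 7215 bp at 4 h, or 40.5% and 4.1% of its body, in 86 and 12 pieces. Cald1, the actin- and myosin-binding caldesmon, went from 52853 bp to 14679 bp, Eya4, a transcriptional coactivator with phosphatase activity, from 53036 bp to 18008 bp, and Hmga2 from 43408 bp to 8532 bp. All 4 kept cover at the start and lost it in the body, which went to between 4.1% and 7.8%. Myh9 (chr15:77591017-77672605), the heavy chain of non-muscle myosin, was nearly filled at 0 min, with 90.6% of its body covered, and had 56.6% at 4 h, in 29 and 51 pieces. Vcl, the adhesion protein vinculin, went from 24.6% to 2.3%, Actn1, an alpha-actinin, from 22.6% to 4.3%, and Sept11, a septin, from 16.6% to 1.0%. Cald1 overlaps Gm11157 and Npn2, and Vcl overlaps Ap3m1.

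Flna, on the X chromosome, went from 89.2% to 34.5%, and Anxa2, a membrane-binding annexin, from 52.7% to 6.0%. Col5a2, the partner chain of Col5a1, went from 42.2% to 25.7%, below the size counted. Ywhaz, an adaptor of phosphorylated proteins, went from 69.8% to 21.9%, and Smad7, an inhibitor of TGF-beta signalling, from 64.5% to 16.5%. Fgf7, a growth factor for epithelial cells made by mesenchyme, went from 86.8% to 42.5%. It lies within the uncharacterized gene 4930525F21Rik (34.1% to 17.8%, below the size counted), and their shared cover cannot be assigned to either. These 15 losses ranged from 10913 bp to 55424 bp, against 10517 bp to 22570 bp for the 15 gains. Among genes of at least 10000 bp, the 10 largest losses in points added Acta2 (68.7% to 13.8%), smooth muscle actin, Lox (83.9% to 34.0%), the enzyme that cross-links collagen, Plaur (70.7% to 22.7%), the urokinase receptor, Sparc (75.1% to 31.7%), a collagen-binding matrix protein, and Ncrna00085 (84.1% to 39.0%).

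Genes of the actin cytoskeleton and adhesion lost cover in 10 of the 38 measured members and gained it in 0, against 1.10% and 2.33% of all genes. Of the 38, 19 had 20% or more cover to lose, and the 10 were among these 19. Of all measured genes with that much to lose, 14.3% lost 20 points or more, so 1.10% understates the share to compare with. Cover was lower at 4 h in 31 and higher in 2, and the list mean went from 38.2% to 24.7%. A lost domain lay in 21 of the 38 and a gained one in 7, against 15.2% and 16.1% of all measured genes. The 10 were Acta2, Anxa2, Cald1, Cnn2, Flna, Lmna, Myh9, Tagln, Tpm4 and Vcl. Tagln, an actin-binding protein of smooth muscle and fibroblasts, went from 72.6% to 7.4%, and Cnn2 from 92.8% to 35.3%. The annotated Tagln overlaps Pcsk7. At the other end, Itgb5 (0.4% at both times) and Cd44 (0.1% and 0.3%) had almost no cover past the start.

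Extracellular matrix genes lost cover in 5 of 35 members (Col5a1, Lox, Mmp14, Serpinh1 and Sparc) and gained it in 1 (Adamts1, a secreted protease, 30.6% to 81.1%). Serpinh1, the collagen chaperone, went from 94.9% to 55.5%. Immediate-early and feedback genes lost cover in 3 of 21 (Egr1, Myc and Spry2) and gained it in 0. Egr1 went from 100% to 66.5%, while Fosl1, an AP-1 protein of the same list, went from 80.6% to 97.4%, below the size counted. The annotated Myc gene went from 80.8% to 41.7%, and from 4221 bp in 2 peaks to 2661 bp in 1. TGF-beta and YAP target genes lost cover in 2 of 21 (Smad7 and Tgfb1i1) and gained it in 0. Secretory pathway chaperones lost it in 1 of 16, at Calr, calreticulin, which went from 92.6% to 13.4%. Of all measured genes, 1.10% lost and 2.33% gained cover. Members with 20% or more to lose numbered 13, 9, 7 and 4 in the order of these lists. Among all genes with that much to lose, 14.3% lost 20 points or more, and the smaller of these counts are few beside it.

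Other lists had few calls, where 2.33% of all measured genes gained and 1.10% lost cover. The proteasome list had 1 loss (Psma7) and 0 gains in 29 genes. Its narrow cover was higher by 20 points or more in 7 and lower in 0, against 7.62% and 4.85% of all genes. CDK inhibitors and p53 targets had 1 gain (Bax) and 1 loss (Cdkn2b) in 14. Circadian genes had 1 gain (Nr1d1, which overlaps Thra) and 0 losses in 14. Cholesterol and lipid genes had 1 gain (Fasn) and 0 losses in 24. The Myc, Max and Mlx network had 1 gain (Mlx, which overlaps Psmc3ip) and 1 loss (Myc) in 10. Factors of RNAPII pausing and elongation had 0 of either in 27. None of the 9 measured fibroblast markers was called, and their mean went from 47.2% to 43.4%. Of all called genes, 164 of the 219 and 79 of the 103 belong to no list.

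Genes shown whatever their change give the scale. Npm1, a nucleolar chaperone, Col1a1, Actb and the YAP targets Ctgf and Cyr61 were 100% covered at both times. A gene that is full in both lists can show no change here, whatever its polymerase density. Ncl, nucleolin, went from 94.1% to 100%, as its longest peak went from 10298 bp to 19039 bp, and Fn1, fibronectin, from 96.5% to 81.9% with 10 peaks becoming 33. Ldha, lactate dehydrogenase, went from 37.3% to 79.7%. Cdk4 had 81.8% and 92.7%, and Ccnd1, cyclin D1, 74.5% and 80.5%. Cad, an enzyme of pyrimidine synthesis, had 0% and 0.7%, Odc1, the first enzyme of polyamine synthesis, 0% at both times, and Cdkn1a, a CDK inhibitor, 6.2% and 5.4%. In the narrow lists, however, cover of Cad went from 4.2% to 85.9%, of Odc1 from 69.2% to 81.0% and of Cdkn1a from 37.9% to 20.6%. Classical Myc targets thus differed among themselves in whether the broad lists reached into the body.

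The libraries between these times were not used to choose the genes, but their depth differs, from 16274905 tags at 30 min to 36395919 at 20 min. Mean body cover of the 219 genes was 19.0% at 0 min, 51% at 10 min, 75.3% at 20 min, 48.0% at 30 min, 57.8% at 2 h and 55.1% at 4 h. Mean cover of the 103 genes was 60.8%, 61.3%, 76.8%, 50.8%, 42.2% and 26.3% at the same times. Over all 9400 genes it was 5.51%, 7.65%, 11.8%, 6.63%, 7.19% and 6.16%. The library of 30 min has nearly the depth of that of 4 h, and in it the 219 genes stood close to their level at 4 h, while the 103 genes stood nearer their level at 0 min. Single genes followed different courses. Ddx21 had 7.4% at 0 min, 88.6% at 30 min, 80.7% at 2 h and 75.0% at 4 h. Gm17484 had 0%, 28.6%, 39.5% and 80.6%. Cald1 had 29.5%, 52.5%, 32.2% and 7.8%, Hmga2 37.1%, 80.1%, 20.6% and 6.6%, and Vcl 24.6%, 72.7%, 8.0% and 2.3%. These 3 genes had more cover at 30 min than at either end, whereas Sparc had 75.1%, 14.4%, 36.9% and 31.7%, with its lowest value at 30 min.

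The narrow lists of the same 2 libraries come from another caller and were set beside the broad ones. Their peaks are longer, with medians of 2616 bp at 0 min and 2681 bp at 4 h, and cover 74.3 Mb and 74.5 Mb. Of lost broad domains, 78.7% still held a narrow peak at 4 h, and of gained ones 85.4% already held one at 0 min. An unshared broad domain was therefore in most cases not a place where the other library had no called RNAPII. Of the 219 genes with more broad cover, the narrow lists had more in 112, of which 47 by 20 points or more, less in 6, and equal cover in 101. In 144 of the 219 the narrow list already covered 90% or more of the body at 0 min, so there was no room for such a gain. Among the 59 with under 80% at 0 min, 47 gained 20 points or more. Of the 103 genes with less broad cover, the narrow lists had less in 42, of which 15 by 20 points or more, more in 7, of which 4 by 20 points or more, and equal cover in 54. In 87 of the 103 the narrow list covered 90% or more of the body at 0 min, so there was room to lose, and 71 had 90% or more at both times. Over all 9400 genes, the narrow lists had 7.62% higher by 20 points or more and 4.85% lower.

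For the gene lists, narrow cover was higher by 20 points or more in 27 and lower in 0 of the 54 ribosome biogenesis genes, and lower in 10 and higher in 1 of the 38 actin and adhesion genes. By count, both groups had the same direction in the 2 kinds of list, but the genes called were not all the same. Called in the broad lists, Acta2 changed by −12.6 points in narrow cover, Anxa2 by −12.5 and Flna by −0.75. Cnn2 and Tagln changed by 0, Cald1 by 1.39 and Vcl by 59.9. Narrow cover of the broad gains Ddx21, Wdr43 and Nolc1 changed by 0.40, 1.48 and 0 points. For the largest changes of single genes the 2 kinds of list parted by direction. Of the 15 largest gains, narrow cover was higher in 10, equal in 3 and lower in 2, and in both of the latter by under 1 point (Psat1 52.9% to 52.5%, Slc7a1 61.6% to 60.9%). Of the 15 largest losses, narrow cover was lower in 5, equal in 2 and higher in 8, of which 5 by 20 points or more. Col5a1 had 0% narrow cover at 0 min and 67.9% at 4 h, Vcl 17.9% and 77.8%, Sept11 15.5% and 57.9%, Eya4 39.5% and 73.4%, and Fgf7 0% and 24.2%. These are opposite to the broad lists. Actn1, with 99.6% and 68.5%, went the same way as in the broad lists, and Anxa2 went from 100% to 87.5%.

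Part of the disagreement sits where the narrow list as analysed here has no peak over strong broad cover. Myh9 had 0% narrow cover at both times, against 90.6% and 56.6% broad cover. Broad peaks without a narrow peak made up 17.1% of those on chromosome 15 at 0 min and 18.7% at 4 h, against 2.74% and 1.78% on all other chromosomes. Genes whose broad cover exceeded the narrow one by 20 points or more numbered 9 at 0 min and 4 at 4 h. The 9 included Col5a1, Fgf7, 4930525F21Rik, Myh9 and Ap3m1, which overlaps Vcl. For Col5a1 and Fgf7 the narrow comparison thus starts from a list with no peak where the broad list has many, and the loss of each rests on the broad lists alone. At 0 min narrow peaks also covered fewer base pairs than broad ones at Vcl (19494 and 26439 bp) and Sept11 (13720 and 14580 bp). Over all 9400 genes mean body cover at 0 min was 21.8% in the narrow and 5.51% in the broad list. The rises in narrow cover at Vcl and Sept11 cannot be told apart from a gap in the 0 min narrow list.

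**Figure D5:**
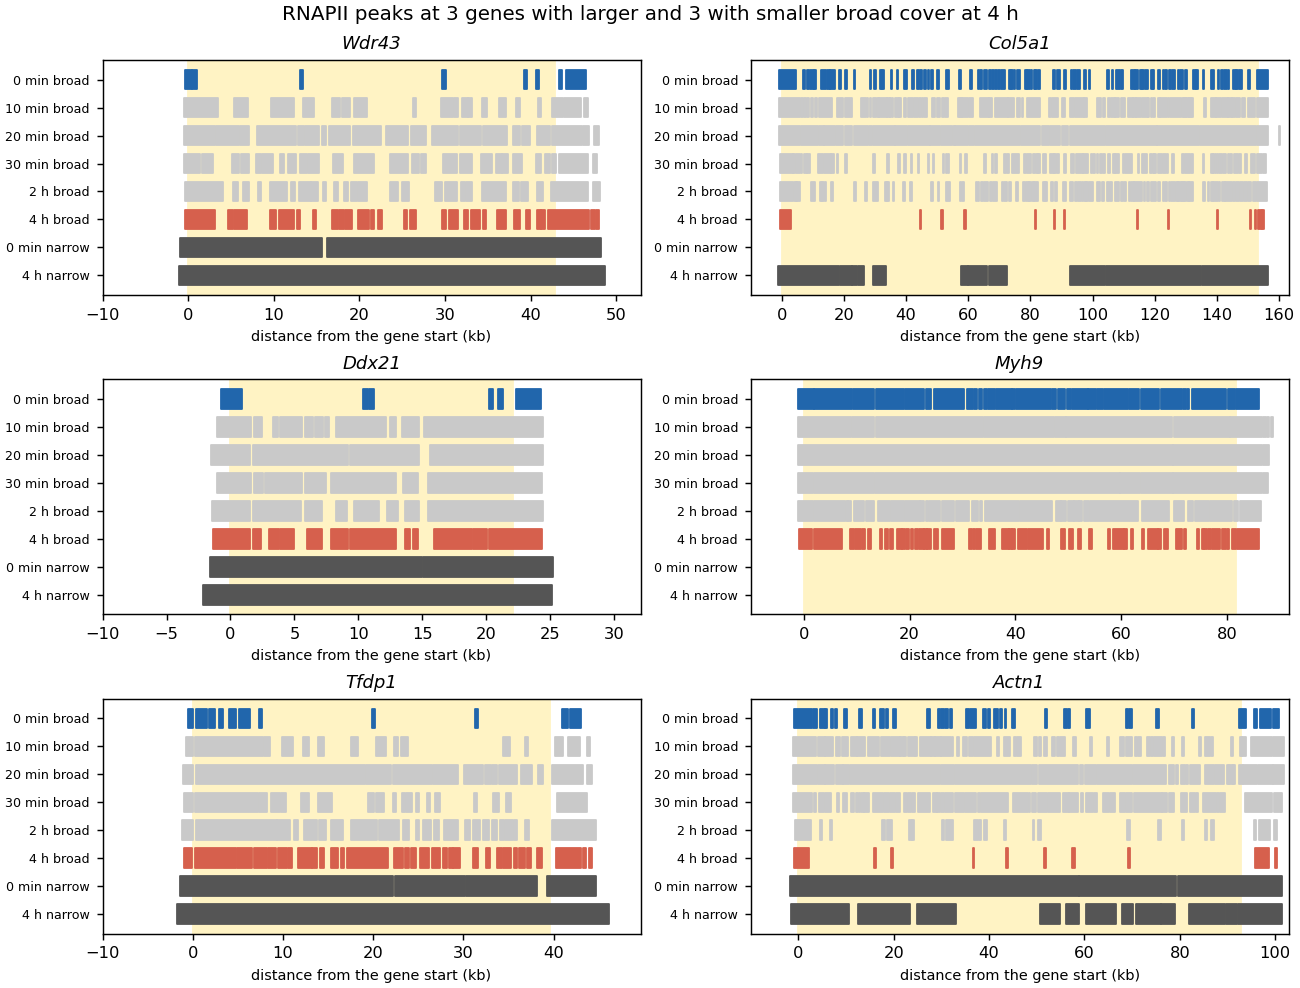
RNAPII peaks over 3 genes with larger (left) and 3 with smaller (right) broad cover at 4 h, against distance from the gene start in kb; each bar is 1 peak, with a row a list and the gene shaded. Broad body cover went to between 48.2% and 75.0% at 4 h in Wdr43, Ddx21 and Tfdp1, and to 4.1% in Col5a1, 56.6% in Myh9 and 4.3% in Actn1; narrow cover was nearly full in the first 3, opposite in Col5a1, absent in Myh9 and lower at 4 h in Actn1.

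Myc peaks at promoters did not separate the classes. At 4 h a Myc peak lay at the promoter of 94.5% of the 219 genes (90.7% to 96.8%), 91.3% of the 103 genes (84.2% to 95.3%) and 95.3% of all 9400. At 0 min the shares were 94.1%, 91.3% and 92.9%. CACGTG, which reads the same on both strands, lay in the 250 bases before to 50 bases after the start in 12.8% of the 219 genes (9.0% to 17.9%), 7.77% of the 103 (3.99% to 14.6%), 10.6% of all measured genes and 7.79% of all 22238 protein-coding genes. The intervals of both classes include the share of all measured genes. A match is a string of letters, and its absence from this window says nothing of Myc at the gene.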

How the data were processed

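RNAPII ChIP-seq of 1 library per group was analysed at 0 min and 4 h of OHT. The submitters' processing notes name BWA 0.6.2-r126 and the mm9 build. The broad lists came from MACS 2.0.9 with broad calling, a p cutoff of 1e-08, an effective genome of 1.87e+09 bp and up to 2 tags of 51 bp per position, per the file headers. The narrow lists came from MACS 1.4.2 with the same cutoff, 2.7e+09 bp and 1 tag per position, per the file headers. The control entered each call with nearly as many tags as the ChIP library. The authors' deposited values per peak are a pileup signal, a −log10 p and the fold enrichment, a ratio to the local control. They were used only to describe or rank peaks within a list. A fixed p cutoff finds more weak peaks in a deeper library. Cover says how much of a gene passes that cutoff, not how dense RNAPII is, and a gap or join between peaks changes it.

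Peaks were merged and intersected in Python 3.11.15 with numpy 2.4.6 and pandas 2.3.3, and the steps were tested on simulated lists. Genes came from GENCODE vM1 on NCBIM37 (mm9), with the longest record of each of 22238 protein-coding symbols. The 29 gene lists held 646 symbols, of which 3 had no match. The domains, genes and gene lists were chosen with earlier results of these data known, and serve as descriptions. Named genes were the 15 largest gains and losses in covered bp, the 10 largest in points among genes of at least 10000 bp, up to 4 members of each list, and 17 genes always shown. All members called in a list, and the domains with the largest changes, were named after their values were seen. Shares carry Wilson 95% intervals. Alternatives were stronger peaks, equal numbers of peaks, joined gaps, narrow lists, other sizes of change and other gene filters. A few genes that this rule names are not reported here. The other samples were used only as stated, and the Miz1 and input libraries were not analysed here.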

Additional observations from a re-analysis of the deposited data

How the results depend on the processing

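No paired analysis was possible because each group holds 1 library. Keeping the stronger 50% of peaks left 952 gained, 839 lost and 8025 shared domains, joining peaks closer than 1000 bp gave 2006 gained and 2245 lost, and domains of at least 1000 bp numbered 329 gained, 251 lost and 7763 shared. The 219 genes with more cover became 139 with stronger peaks, 737 with the narrow lists, 453 at 10 points, 68 at 40 points, 132 with at least 2000 bp added and 143 without overlapping genes. Of the 139, 73 are among the 219, and of the 737, 47 are. The 103 with less became 477 with the narrow lists and 258, 25 and 51 at the same sizes; 15 of the 477, and 42 of the 76 found with stronger peaks, are among the 103. Stronger peaks left 5 ribosome biogenesis gains, 3 splicing gains and 3 matrix losses, and the narrow lists gave 27 and 3 for the first 2. Among smaller list counts, cytosolic chaperone gains went from 3 to 0 (stronger) and 5 (joined), translation factor gains from 3 to 1 (equal numbers) and 8 (joined), amino acid gains from 3 to 1 (stronger), nucleotide gains from 3 to 8 and ribosomal protein gains from 2 to 0 (narrow). Among named genes called in the broad lists, direction turned in points with the narrow lists at Eif2s2 (−0.07), Pgam1 (−2.38), Cald1 (1.39), Col5a1 (67.9), Fgf7 (24.2), Psat1 (−0.37) and Vcl (59.9), and with stronger peaks at Cald1 (0.34). The cause was not tested. The other alternatives kept the counts of domains and of all genes called within 1.5 times. Without replicates, the spread between cultures is unknown, and a gene already filled at both times shows no change.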

Other observations

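Short genes outside the lists, picked after their values were seen, had some of the largest changes in points. Rgs19, a regulator of G-protein signalling, went from 1.7% of its body at 0 min to 100% at 4 h, and a single domain joins it to its neighbour Tcea2. Fam136a went from 0% to 90%, Pusl1, a pseudouridine synthase-like gene, from 3.2% to 83.6%, Ifrd2 from 0% to 76.1% and Eif3g, a translation initiation factor, from 5.7% to 74.6%. Narrow cover of Ifrd2 went from 36.4% to 100%, while that of the other 4 was 100% at both times.

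On the other side, Limd2 went from 98.2% to 15.8%, and Arc, a neuronal immediate-early gene, from 60.4% to 0%. Plau, which encodes urokinase, went from 59.6% to 0% in the broad lists and from 100% to 7.4% in the narrow lists. Its receptor gene Plaur was also among the large losses. Tuba1a, an alpha-tubulin, went from 54.9% to 0%, and Arf6, a GTPase of membrane traffic, from 52.4% to 1.7%. Narrow cover of Limd2, Arc and Arf6 was 100% at both times, and that of Tuba1a went from 100% to 82.1%.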
